A study of Mus musculus with 12 samples.

Results

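The genes described are a list of 40 cell cycle genes that carry a cell through DNA replication and mitosis, out of 24341 genes counted in the aorta of mice with an elastase-induced aneurysm. They were chosen by name: 14 act in DNA replication, 20 in mitosis, and 6 are cyclins or the kinase Cdk1, which drive the steps between. Where a gene had several transcript accessions, the accession with the highest mean level stood for it. The study infused porcine pancreatic elastase (PPE), an enzyme that breaks down elastic fibres, into the infrarenal aorta of male C57BL/6J mice aged 10 weeks and sequenced aortic RNA. The 3 groups held 4 mice each: saline infusion with harvest at day 7 (saline), PPE with harvest at day 7 (PPE week 1) and PPE with harvest at day 14 (PPE week 2). No group received saline with harvest at day 14, so that the comparison of PPE week 2 with saline also differs in time since surgery. All mice had an operation with infusion, and whole tissue was used.

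A cell that is about to divide first licenses its replication origins: Cdc6 and Cdt1 load the Mcm2 to Mcm7 helicase onto DNA, and Ticrr helps to switch that helicase on. Ribonucleotide reductase (Rrm1, Rrm2) then supplies deoxynucleotides and Pcna clamps the polymerase to the template, before cyclin B with Cdk1 starts mitosis and kinetochore proteins and motors separate the chromosomes. These transcripts are scarce in resting tissue, and in the arterial wall they are used as signs of proliferating smooth muscle cells, fibroblasts or leukocytes.

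Promoters are shown for some of the members described below. Many such genes carry a CCAAT box (CCAAT), and mitosis genes a cell cycle homology region, or CHR (TTTGAA or TTCGAA). Top2a is among those shown although edgeR did not call it over all 12 libraries. Cenpe is not shown although edgeR called its fall. The stretches come from the promoter table of RefSeq (GRCm38.p6, which mm10 represents), run 5′ to 3′ on the gene's strand, and leave out annotated exons. Capitals mark a motif match on either strand. Ticrr is at chr7:79660076-79660195, Rrm1 at chr7:102441575-102441694 and Kif11 at chr19:37376262-37376381, all on the plus strand. Cenpf is at chr1:189688108-189688206, Mki67 at chr7:135716451-135716499 and Top2a at chr11:99024200-99024309, all on the minus strand.
Ticrr: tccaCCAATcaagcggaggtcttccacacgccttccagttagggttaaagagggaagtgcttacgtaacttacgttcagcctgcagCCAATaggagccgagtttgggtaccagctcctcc
Rrm1: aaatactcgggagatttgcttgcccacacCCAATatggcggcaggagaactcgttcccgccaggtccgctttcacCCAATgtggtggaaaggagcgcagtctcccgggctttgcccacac
Kif11: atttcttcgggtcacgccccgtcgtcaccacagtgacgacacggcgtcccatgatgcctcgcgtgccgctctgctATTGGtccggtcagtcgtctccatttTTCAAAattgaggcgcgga
Cenpf: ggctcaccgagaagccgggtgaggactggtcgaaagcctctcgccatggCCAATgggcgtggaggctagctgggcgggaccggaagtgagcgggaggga
Mki67: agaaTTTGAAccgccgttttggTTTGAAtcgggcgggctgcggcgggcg
Top2a: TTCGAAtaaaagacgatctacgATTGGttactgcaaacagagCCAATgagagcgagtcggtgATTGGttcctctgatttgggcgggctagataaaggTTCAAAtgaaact

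The table held 38 promoters of 34 members, and the 250 bases before each start were searched. A CCAAT box was found in 31 of 38 (81.6%), against 34.8% of the 11379 promoters of tested genes and 33.8% of all 32851 promoters. A CHR was found in 8 of the 19 promoters of mitosis members (42.1%) and in 2 of the 15 of replication members (13.3%), against 12.7% of promoters of tested genes and 17.1% of all. Among the mitosis members, Ect2 and Prc1 each entered with a pair of overlapping promoters, and both of Ect2 held a CHR. An E2F-type sequence (TTTCCCGC, TTTCGCGC, TTTGCCGC or TTTGGCGC) was found in 5 of 15 replication promoters (33.3%) and 0 of 19 mitosis promoters, against 3.05% of promoters of tested genes and 1.86% of all. None of these motifs contains another. In the stretches above, Ticrr and Rrm1 each had 2 CCAAT boxes, and Kif11 had a CCAAT box 45 bases and a CHR 19 bases before the start. The Mki67 stretch, only 49 bases long, had 2 CHRs and no CCAAT box. The 250 bases searched held more: 3 CCAAT boxes for Mki67, 3 for Ticrr, 2 for Cenpf, and 6 with 4 CHRs for Top2a. For Cenpe, which is not shown, they held 1 CCAAT box and no CHR. A match is a string of letters and does not show that a factor binds there.

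Of the 40 members, 28 passed the filter on low counts and were tested: 10 replication genes, 13 mitosis genes and 5 of the cyclins and Cdk1. The other 12 had few or no counts over all libraries: 40 for Ect2, 13 each for Cdc6 and Aurka, 3 each for Mcm5, Ccne2 and Kif20a, and 0 for Tyms, Uhrf1, Bub1, Ttk, Tpx2 and Prc1. All 25 members with 1 accession in the table were tested, but only 3 of the 15 with several (Mcm6, Birc5 and Nusap1). The same split held over all genes, where 63.3% of 15241 genes with 1 accession and 33.5% of 5341 with several were tested. The low counts of these members may therefore not measure their expression, and the levels of Mcm6, Birc5 and Nusap1 may be those of part of their reads, which was not tested. Exons on the other strand covered 12.5% of the exonic bases of Ccna2, 8.70% of Mcm7 and 7.09% of Plk1, and reads of the overlapping genes cannot be told apart in these unstranded libraries. Pcna, Ccnb1 and Ccnb2 have named pseudogenes, so that their counts are uncertain.

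Libraries held 8343313 to 12269131 counts. A ribosomal RNA precursor took 41.3% ± 6.48 (SD, n = 4) of them in saline, 30.4% ± 6.34 (n = 4) in PPE week 1 and 20.4% ± 1.13 (n = 4) in PPE week 2, and its share moved with the groups. All 12 smooth muscle markers passed the filter, with Acta2 between 3220 and 4329 CPM in saline, and so did 5 of 8 endothelial markers, among them Cdh5 between 207 and 241 CPM. The endothelial markers Pecam1 and Tek, which have several accessions, were at 0. Levels are given in CPM (a gene's counts relative to all counts of its library, with edgeR's TMM scaling), in the order of replicates 1 to 4. Changes are log2 fold changes ± their standard errors (SE) from edgeR's quasi-likelihood test over all 12 libraries, and a gene was called where its Benjamini-Hochberg adjusted p over 12756 accessions was under 0.05.

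Cell cycle transcripts were at their highest in PPE week 1 and at their lowest in PPE week 2 for most members. The highest of the 12 libraries was a PPE week 1 library for 19 of the 28 tested members, and the lowest was a PPE week 2 library for 23 of them. Most of these lowest values came from 1 mouse: 16 were in replicate 1 of PPE week 2, 6 in replicate 3, 1 in replicate 2 and 0 in replicate 4. The summed level of the mitosis members was 483, 449, 539 and 505 CPM in saline, 736, 717, 751 and 692 CPM in PPE week 1, and 146, 444, 236 and 507 CPM in PPE week 2. All 4 PPE week 1 libraries lay above the other 8. The replication members summed to 149, 198, 179 and 169 CPM in saline, 264, 266, 241 and 229 CPM in PPE week 1, and 106, 211, 121 and 201 CPM in PPE week 2. The PPE week 2 libraries stood apart from each other: replicates 1 and 3 were low and replicates 2 and 4 lay near saline. The labels give no difference in handling between these 4 libraries, the reason for the split was not tested, and it bears on every value of PPE week 2. Their highest sum was 3.46 times the lowest for mitosis members and 1.99 times for replication members, against 1.09 and 1.16 times in PPE week 1. In whole tissue, fewer dividing cells and less of each transcript per cell cannot be told apart.

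**Figure D1:**
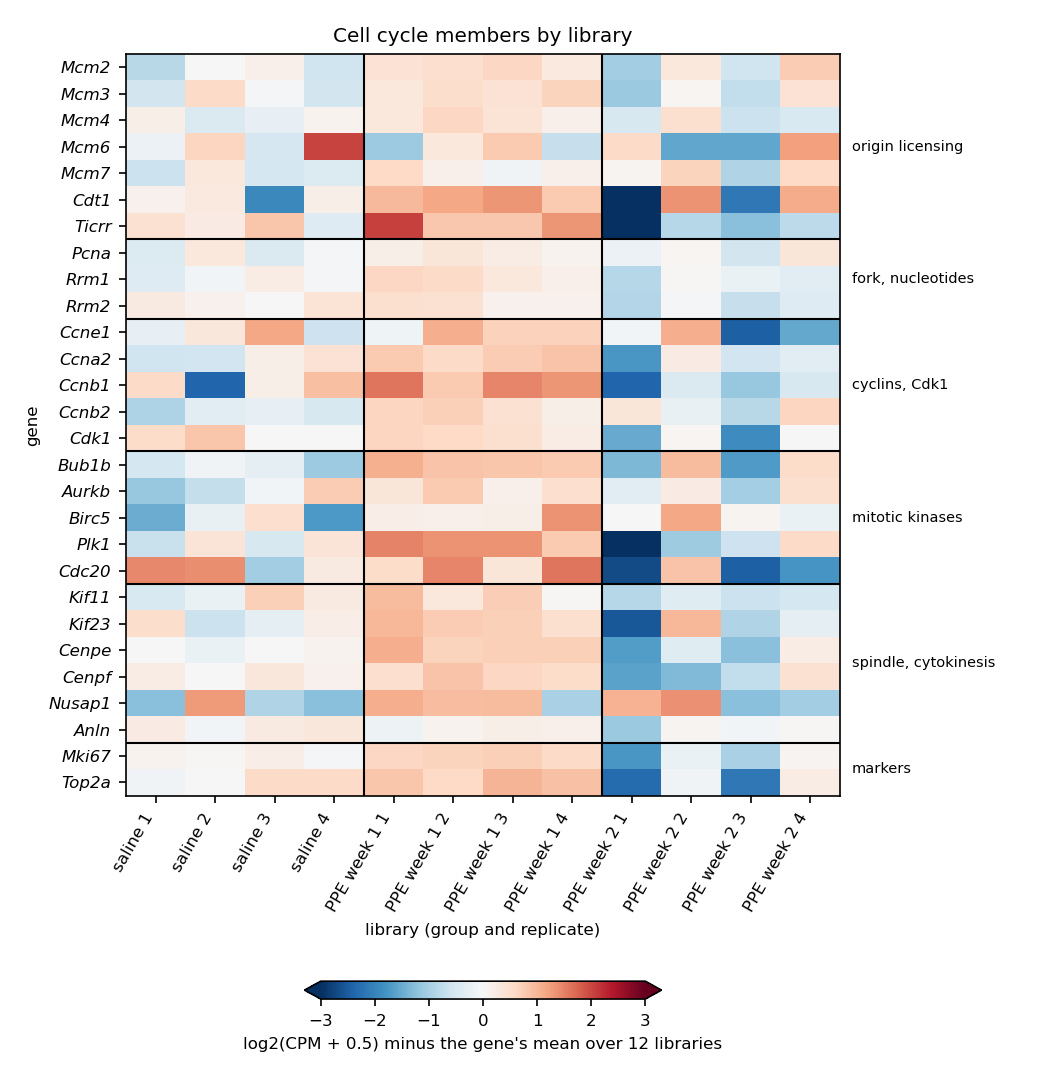
Level of the 28 tested members (vertical axis, by role) in each of the 12 libraries (horizontal axis), as log2(CPM + 0.5) minus the gene's mean over the 12 libraries; red is above and blue below that mean. PPE week 2 replicates 1 and 3 are blue for most members, and the lowest library was in PPE week 2 for 23 of 28, for 16 of them replicate 1.

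Macrophage, T and NK cell, dendritic cell and neutrophil markers were high and low in the same libraries as the cell cycle sums. B and plasma cell markers had their highest mean in PPE week 2, but there too replicates 1 and 3 were the lower ones. Macrophage and monocyte markers (12 of 13 tested, with Itgam at 0 in every library) summed to between 2287 and 2760 CPM in saline and between 4683 and 5902 CPM in PPE week 1. In PPE week 2 they were 1463, 3440, 1403 and 3868 CPM, low in replicates 1 and 3. T and NK cell markers (9 of 12 tested, Klrb1c at 0) lay between 20.9 and 48.8 CPM in saline and between 145 and 206 CPM in PPE week 1. In PPE week 2 they were 28.5, 164, 29.4 and 151 CPM. EdgeR called 4 of 12 macrophage and 3 of 9 T and NK cell markers higher in PPE week 1 than in saline (3.98% of all accessions were). It called 2 of 12 and 1 of 9 lower in PPE week 2 than in PPE week 1 (2.82% of all). Dendritic cell markers (5 of 7 tested, none called) lay between 113 and 148 CPM in saline and between 190.2 and 242 CPM in PPE week 1, and were at 80.1, 200.2, 55.6 and 225 CPM in PPE week 2. Neutrophil markers (3 of 8 tested, none called) lay between 6.93 and 17.7 CPM in saline and between 37.8 and 136 CPM in PPE week 1. In PPE week 2 they were at 5.22, 16.4, 2.98 and 18.4 CPM. B and plasma cell markers (5 of 7 tested, none called) lay between 10.2 and 18.0 CPM in saline and between 7.28 and 41.0 CPM in PPE week 1. In PPE week 2 they were at 20.9, 62.5, 21.2 and 42.2 CPM, all above saline. Smooth muscle markers moved the other way, from between 10166 and 13358 CPM in saline to between 2550 and 4737 CPM in PPE week 1, with 9 of 12 called lower (3.91% of all accessions were), and 9 of 12 were called higher in PPE week 2 than in PPE week 1 (3.77% of all). Of 9 fibroblast markers, all tested, 5 were called lower in PPE week 1 than in saline and 0 higher. Their summed level, carried mostly by Col1a1 and Col1a2, did not fall. It lay between 34392.5 and 45113 CPM in saline and between 43052 and 55565 CPM in PPE week 1. Col1a1 was wholly higher in PPE week 1, by 0.40 (edgeR adjusted p = 0.0951), and Col1a2 and Pdgfra, also uncalled, had log2 fold changes of 0.20 and 0.16. In PPE week 2, 3 of the 9 were called higher than in PPE week 1, and 3 lower than in saline (1.35% of all). Adipocyte and endothelial marker sums were highest in replicate 1 among the PPE week 2 libraries. Adipocyte markers were at 2609, 181, 1060 and 803 CPM there, and endothelial markers at 1184, 755, 707 and 725 CPM. The part of these cell types in the cell cycle results was not tested.

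**Figure D2:**
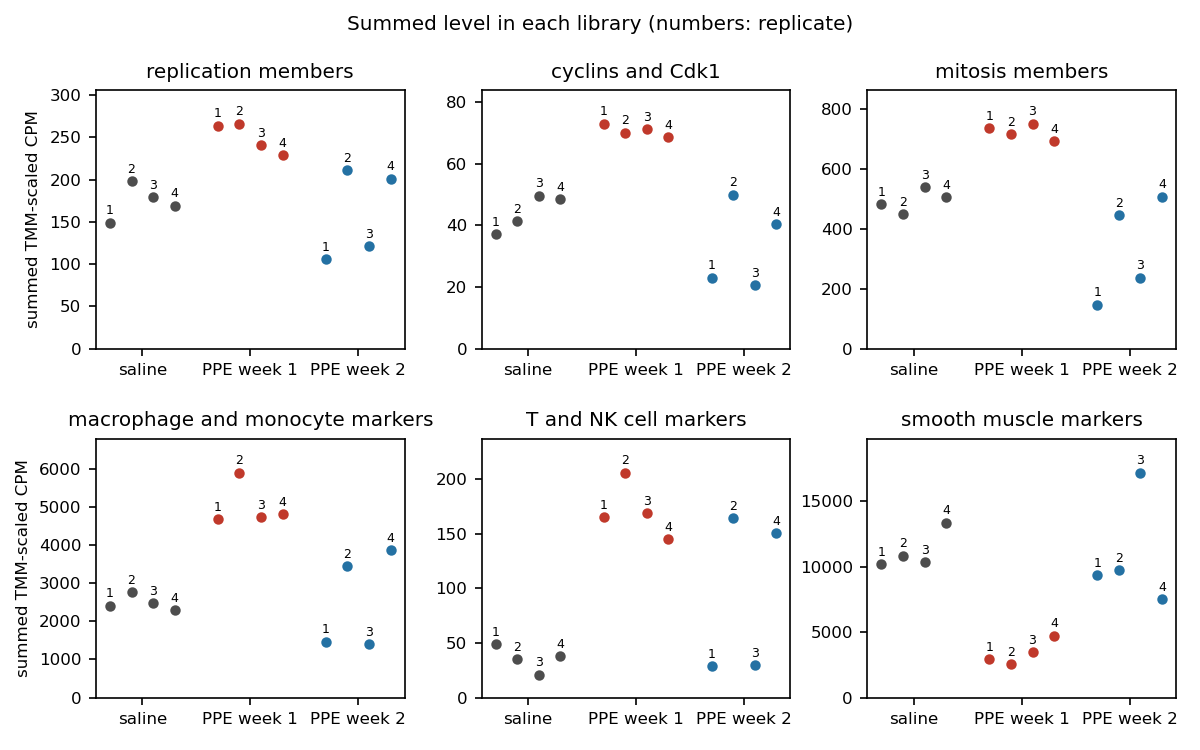
Summed TMM-scaled CPM (vertical axis, from 0) of 3 member classes and of 3 sets of cell type markers in each library, with points numbered by replicate. In PPE week 2, replicates 1 and 3 were low for the cell cycle, macrophage and T and NK cell sums alike, while smooth muscle markers were lowest in PPE week 1.

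PPE week 1 was set against saline to see what the wall expressed a week after elastase. Of the 28 tested members, 26 had a log2 fold change above 0 (50.2% of all tested accessions did), with a median of 0.58 against 0.00 over all accessions, but edgeR called 0 higher and 0 lower, where 3.98% of all accessions were called higher and 3.91% lower. Without adjustment, at a p under 0.05, 6 were higher (background 11.6%) and 0 lower (10.1%). DESeq2 called 1 higher (Bub1b) and limma-voom called 0, where they called 6.52% and 3.37% of all accessions higher. In 10 members all 4 PPE week 1 libraries lay above all 4 saline libraries (background 12.1%). They were Mcm2, Cdt1, Ccna2, Ccnb2, Bub1b, Plk1, Cenpe, Cenpf, Mki67 and Top2a. When the 4 PPE week 2 libraries, which spread widely, were kept out of the fit, 7 members were called higher: Bub1b, Ccna2, Ccnb2, Cenpe, Mki67, Plk1 and Top2a. That fit also called more of all accessions higher, 9.55% against 3.98%.

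Among the origin licensing genes, no Mcm helicase subunit was called in any comparison by edgeR, DESeq2 or limma-voom over all 12 libraries. Without PPE week 2 replicate 2, edgeR called Mcm4 lower in PPE week 2 than in PPE week 1 (adjusted p = 0.0242). Mcm2 was at 11.1, 19.7, 22.3 and 12.9 CPM in saline, 27.1, 28.8, 30.8 and 24.5 CPM in PPE week 1 and 9.51, 25.1, 13.0 and 34.0 CPM in PPE week 2. PPE week 1 lay wholly above saline, by 0.75 ± 0.35 (edgeR adjusted p = 0.225), while PPE week 2 spanned both. Mcm3, the most abundant subunit measured, was at 22.8, 50.2, 32.1 and 22.9 CPM in saline, 42.5, 49.2, 45.6 and 54.2 CPM in PPE week 1 and 15.3, 35.3, 20.1 and 45.9 CPM in PPE week 2. Its groups overlapped in every comparison, with a difference of 0.58 ± 0.32 between PPE week 1 and saline (edgeR adjusted p = 0.315).

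Mcm4 was at 31.3, 20.4, 23.3 and 29.8 CPM in saline, 34.3, 42.4, 37.0 and 30.5 CPM in PPE week 1 and 19.6, 38.8, 17.5 and 19.9 CPM in PPE week 2. Only replicate 2 of PPE week 2 was within the range of PPE week 1. Mcm7 was at 6.44, 13.1, 7.06 and 7.64 CPM in saline, 16.0, 11.6, 9.65 and 11.7 CPM in PPE week 1 and 11.1, 16.7, 5.34 and 15.9 CPM in PPE week 2. Its means in the 2 PPE groups were 12.2 and 12.3 CPM, a difference of 0.00 ± 0.38. Mcm6, counted on an accession with 171 counts in all, was at 0.784, 1.79, 0.523 and 5.44 CPM in saline, 0.184, 1.33, 2.02 and 0.399 CPM in PPE week 1 and 1.68, 0, 0 and 2.95 CPM in PPE week 2, and its groups overlapped. Mcm5 had too few counts for a level. Cdt1, the loader of the helicase, differed by 1.27 ± 1.02 between PPE week 1 and saline and was at 0 in replicate 1 of PPE week 2.

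Ticrr, which brings the firing factors to loaded helicases, had the largest drop of all members from week 1 to week 2. It was at 6.01, 5.07, 7.97 and 3.11 CPM in saline, 18.9, 7.74, 7.78 and 11.3 CPM in PPE week 1 and 0, 2.11, 1.49 and 2.23 CPM in PPE week 2. All 4 PPE week 2 libraries lay below the other 8, and PPE week 1 overlapped saline. Ticrr fell by 2.95 ± 0.73 from PPE week 1 to PPE week 2 (7.75-fold lower, edgeR adjusted p = 0.0231). Against saline the difference in PPE week 2 was -1.91 ± 0.71 (edgeR adjusted p = 0.170). The fall was not called without replicate 1 of PPE week 1 or without replicate 3 of PPE week 2 (largest adjusted p = 0.0884). The gene rests on 751 counts in all, and 0.510% of its exonic bases have an exon of Kif7 on the other strand.

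Of the genes that work at the fork, Rrm1, the large subunit of ribonucleotide reductase, fell. It was at 40.5, 49.9, 62.1 and 52.0 CPM in saline, 81.8, 78.6, 65.5 and 59.0 CPM in PPE week 1 and 28.8, 53.9, 45.9 and 41.5 CPM in PPE week 2. The PPE groups did not overlap, while each overlapped saline. Rrm1 fell by 0.74 ± 0.20 from PPE week 1 to PPE week 2 (1.68-fold lower, edgeR adjusted p = 0.0385). The call was lost when replicate 1, 2 or 3 of PPE week 1, or replicate 1, 3 or 4 of PPE week 2, was left out (largest adjusted p = 0.119). Rrm2, the small subunit, which carries the enzyme's radical, was at 13.2 ± 1.72 CPM (SD, n = 4) in saline, 14.1 ± 2.01 in PPE week 1 and 8.03 ± 2.14 in PPE week 2, where all libraries lay below the other 8, with differences from PPE week 1 and saline of -0.82 ± 0.30 and -0.72 ± 0.30 (edgeR adjusted p = 0.117 and 0.226). The sliding clamp Pcna differed by 0.35 ± 0.28 between PPE week 1 and saline and by -0.26 ± 0.28 between the PPE groups.

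Over all 12 libraries, with the filter and scaling given above, edgeR called neither a cyclin nor Cdk1 in any comparison. With scaling by library size alone it called Ccnb2 higher in PPE week 1 than in saline. It called Ccna2 lower in PPE week 2 than in PPE week 1 without the low-count filter, with halved counts and with the replicate number as a block. DESeq2 called Ccna2 and Ccnb1 lower in PPE week 2 than in PPE week 1. Ccna2, cyclin A2, which serves S phase and entry into mitosis, was at 12.6, 12.8, 21.8 and 26.4 CPM in saline, 33.8, 29.0, 33.4 and 35.6 CPM in PPE week 1 and 5.41, 23.2, 12.9 and 15.4 CPM in PPE week 2. PPE week 1 lay above every other library. The difference was 0.84 ± 0.36 from saline to PPE week 1 (edgeR adjusted p = 0.174) and -1.21 ± 0.36 from PPE week 1 to PPE week 2 (edgeR adjusted p = 0.0531, limma-voom and DESeq2 called it). Ccnb2, a mitotic B-type cyclin, was at 4.18, 6.70, 7.06 and 5.95 CPM in saline, 13.5, 14.3, 11.7 and 9.68 CPM in PPE week 1 and 11.1, 7.19, 4.55 and 13.4 CPM in PPE week 2. It was wholly above saline in PPE week 1, by 1.04 ± 0.39 (edgeR adjusted p = 0.112), and PPE week 2 overlapped both. Ccnb1, its close relative, differed by -2.77 ± 1.02 between the PPE groups, and Cdk1, the kinase both activate, by -1.15 ± 0.44, each without overlap (edgeR adjusted p = 0.122 and 0.139). Ccne1, the cyclin of S phase entry, overlapped in every comparison.

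In the group of mitotic kinases and checkpoint proteins, Bub1b, which encodes the spindle checkpoint protein BubR1, had the smallest unadjusted p of its group in PPE week 1. It was at 16.6, 22.5, 19.7 and 11.1 CPM in saline, 50.7, 44.2, 43.2 and 41.5 CPM in PPE week 1 and 9.14, 47.1, 7.01 and 35.5 CPM in PPE week 2. PPE week 1 lay wholly above saline, and PPE week 2 was split, with replicates 1 and 3 below saline and replicates 2 and 4 above it. The difference in PPE week 1 was 1.36 ± 0.49 (2.57-fold, edgeR adjusted p = 0.118). Plk1, a kinase of mitotic entry and spindle assembly, was wholly above saline in PPE week 1, by 1.37 ± 0.76, and wholly below PPE week 1 in PPE week 2, by -1.98 ± 0.78 (edgeR adjusted p = 0.327 and 0.151). Aurkb, Birc5 and Cdc20 overlapped in every comparison.

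The fall from week 1 to week 2 was called in 3 genes of the kinetochore and spindle. Cenpe, a kinetochore motor that moves chromosomes to the spindle equator, was at 41.5, 35.6, 40.8 and 43.7 CPM in saline, 87.5, 65.5, 67.2 and 67.9 CPM in PPE week 1 and 12.4, 31.7, 16.8 and 47.6 CPM in PPE week 2. PPE week 1 was above all other libraries, and 3 of 4 PPE week 2 libraries were below all saline libraries. Cenpe fell by 1.41 ± 0.31 from PPE week 1 to PPE week 2 (2.65-fold lower, edgeR adjusted p = 0.0148), and was called when any 1 of the 12 libraries was left out. EdgeR did not call it in the fit of only the 8 PPE libraries (adjusted p = 0.0612) or with the ribosomal RNA share as a covariate (adjusted p = 0.139). Cenpf, a kinetochore protein of late G2 and mitosis, was at 44.3, 38.0, 47.8 and 41.7 CPM in saline, 53.8, 68.9, 59.0 and 55.6 CPM in PPE week 1 and 12.1, 14.9, 22.7 and 52.2 CPM in PPE week 2. Replicate 4 of PPE week 2 lay just under the lowest PPE week 1 library and the other 3 lay far below saline. Cenpf fell by 1.21 ± 0.35 (2.32-fold lower, edgeR adjusted p = 0.0481), and of the 12 fits that left out a library only that without PPE week 2 replicate 4 called it.

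Kif11, the motor that pushes spindle poles apart, was at 11.0, 13.1, 25.2 and 18.5 CPM in saline, 29.6, 19.0, 25.6 and 15.6 CPM in PPE week 1 and 8.21, 11.6, 9.55 and 10.3 CPM in PPE week 2. The 4 PPE week 2 libraries were close together and all lay below PPE week 1. Kif11 fell by 1.18 ± 0.31 (2.27-fold lower, edgeR adjusted p = 0.0324), a call lost when replicate 1, 2 or 3 of PPE week 1, or replicate 1 or 3 of PPE week 2, was left out. Anln, which encodes the cytokinesis scaffold anillin, overlapped in every comparison, at 73.3, 58.4, 75.0 and 78.6 CPM in saline, 55.5, 66.1, 69.6 and 68.2 CPM in PPE week 1 and 28.3, 65.3, 58.3 and 63.6 CPM in PPE week 2. Only replicate 1 of PPE week 2 stood below the rest, and the differences were -0.14 ± 0.22 from saline to PPE week 1, -0.40 ± 0.22 from saline to PPE week 2 and -0.27 ± 0.22 between the PPE groups. The cytokinesis motor Kif23 and the spindle protein Nusap1 overlapped in every comparison.

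The proliferation marker Mki67, which coats mitotic chromosomes, was the most abundant member. It was at 193, 182, 204 and 169.5 CPM in saline, 273, 285, 293 and 264 CPM in PPE week 1 and 52.8, 154, 90.4 and 188 CPM in PPE week 2. PPE week 1 was above all saline libraries, and PPE week 2 was below saline in 3 libraries and within it in replicate 4. Mki67 fell by 1.20 ± 0.29 from PPE week 1 to PPE week 2 (2.29-fold lower, edgeR adjusted p = 0.0277), a call lost without any 1 of the PPE week 1 libraries or without PPE week 2 replicate 3. Top2a, the topoisomerase that untangles replicated chromosomes, was at 61.8, 66.3, 98.5 and 98.9 CPM in saline, 117, 99.6, 135 and 121 CPM in PPE week 1 and 12.9, 60.9, 14.4 and 76.9 CPM in PPE week 2. PPE week 1 lay wholly above both other groups, and the difference between the PPE groups was -1.52 ± 0.51 (edgeR adjusted p = 0.114).

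**Figure D3:**
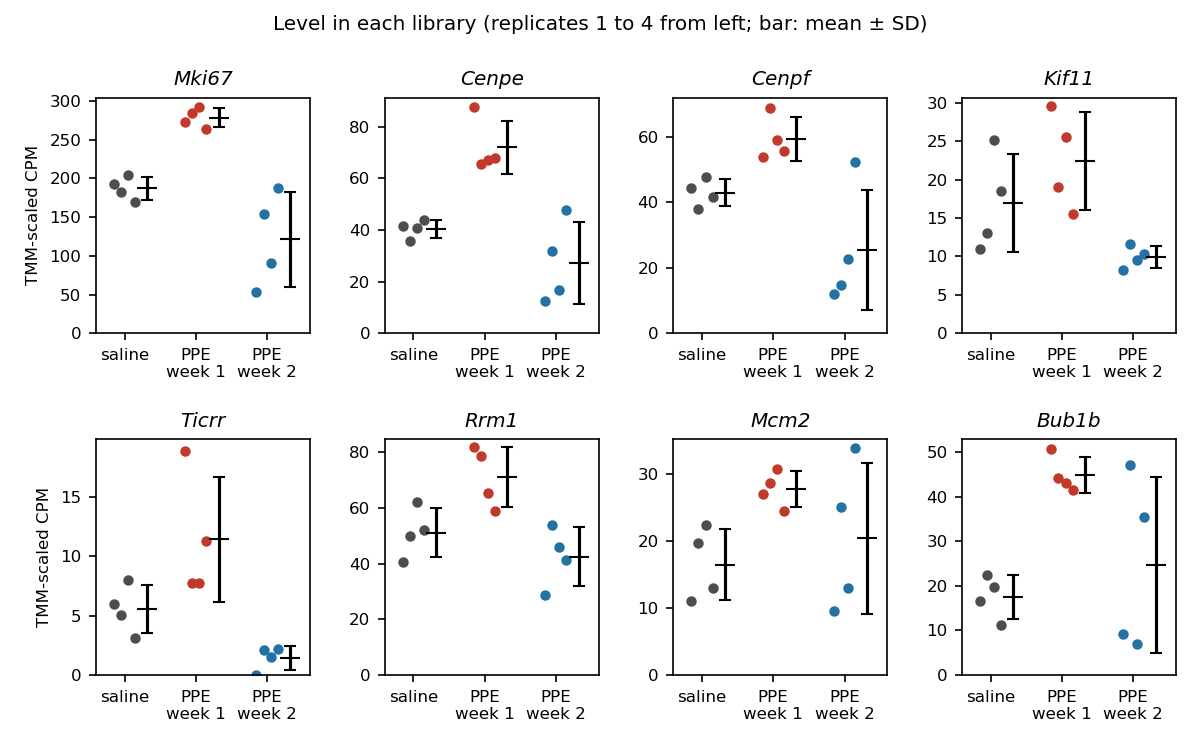
TMM-scaled CPM (vertical axis, from 0) of 8 members in each library, with replicates 1 to 4 from left and the mean ± SD of each group beside the points. Ticrr and Kif11 were low in all 4 PPE week 2 libraries, while Bub1b and Mcm2 were split into 2 low and 2 high libraries.

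Across the list, PPE week 2 against PPE week 1 gave 6 members called lower (Ticrr, Rrm1, Kif11, Cenpe, Cenpf and Mki67) and 0 higher, where 2.82% of all tested accessions were called lower and 3.77% higher. Without adjustment, at a p under 0.05, 14 were lower (background 9.87%) and 0 higher (10.6%), and DESeq2 and limma-voom also called 0 higher. A log2 fold change below 0 was seen in 26 of 28 members (background 48.7%), with a median of -0.84 against 0.02 over all accessions. The PPE groups did not overlap in 12 members, all lower in PPE week 2 (background 8.68% lower and 7.24% higher): the 6 called and Rrm2, Ccna2, Ccnb1, Cdk1, Plk1 and Top2a. The count of 6 was 1 without PPE week 1 replicate 1 (1.09% of all) or PPE week 2 replicate 3 (1.21% of all). It was 2 without PPE week 1 replicate 2 (0.837% of all) or 3 (1.52% of all), and 3 without PPE week 2 replicate 1 (1.75% of all). It was 11 with DESeq2 and 9 with limma-voom, where 5.1% and 4.76% of all accessions were called lower. It was 1 (Kif11) in a fit of only the 8 PPE libraries (1.51% of all), 2 (Cenpe and Ticrr) with scaling by library size alone (0.588% of all) and 0 with the ribosomal RNA share, which differs between the groups, as a covariate (0.118% of all). With that covariate the differences were -2.57 ± 0.96 for Ticrr, -0.67 ± 0.28 for Rrm1, -1.27 ± 0.41 for Kif11, -1.50 ± 0.44 for Cenpe, -1.33 ± 0.48 for Cenpf and -1.30 ± 0.39 for Mki67.

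**Figure D4:**
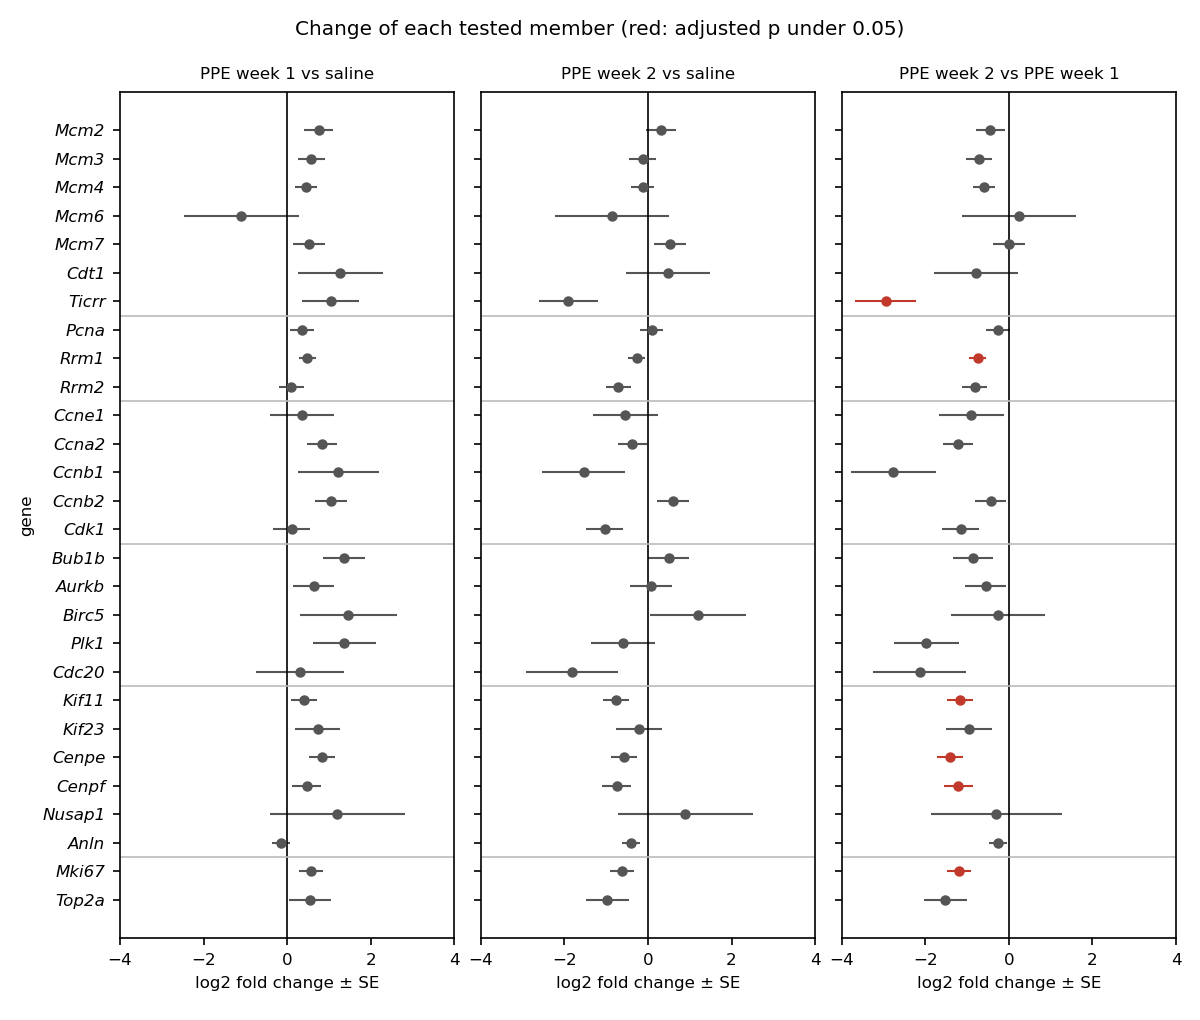
Log2 fold change ± SE (horizontal axis) of each tested member (vertical axis) in the 3 comparisons, with called members in red. The 6 red points are all in PPE week 2 against PPE week 1, and 26 of 28 points lie below 0 there.

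Against saline, PPE week 2 gave 0 members called in either direction by edgeR, DESeq2 or limma-voom, where edgeR called 1.3% of all accessions higher and 1.35% lower. Without adjustment, at a p under 0.05, 0 were higher (background 8.84%) and 6 lower (background 7.72%). A log2 fold change below 0 was seen in 19 of 28 members (background 46.3%), with a median of -0.39 against 0.05 over all accessions. Only Ticrr and Rrm2 lay wholly below saline (background 4.44%). Each comparison shares a group of libraries, saline, PPE week 1 or PPE week 2, with each of the others, so that they are not independent.

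Replication and mitosis members were set side by side. The median log2 fold change was 0.50 for replication, 0.63 for mitosis and 0.84 for the cyclins and Cdk1 when PPE week 1 was set against saline. Between the PPE groups it was -0.65, -1.18 and -1.15, and between PPE week 2 and saline it was -0.13, -0.57 and -0.54. The 5 tested Mcm subunits had medians of 0.52, -0.44 and -0.13 in the same order of comparisons, and none was called. Members were called only between the PPE groups, all lower in PPE week 2, where 2.82% of all accessions were called lower. They were 2 of 10 in replication (Ticrr and Rrm1), 4 of 13 in mitosis and 0 of 5 among the cyclins and Cdk1. The difference between the classes was not tested. Within replication, Ticrr was apart from the Mcm subunits, at -2.95 ± 0.73 against values from -0.71 ± 0.32 (Mcm3) to 0.24 ± 1.36 (Mcm6). With scaling by library size alone the replication median in PPE week 2 against saline was 0.39, when the median over all accessions was 0.54.

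Levels per kilobase of transcript, which allow genes to be ranked, were computed for the 25 members with a single accession. In saline, Mki67 led with 18.6 ± 1.46 CPM per kb (SD, n = 4), followed by Top2a with 15.6 ± 3.85, Anln with 15.5 ± 1.93, Rrm1 with 12.8 ± 2.22 and Mcm3 with 10.6 ± 4.25. Among these 5, neighbours in the order lay within the larger of their SDs, apart from Anln and Rrm1. Ticrr was the lowest of the 25 at 0.769 ± 0.281.

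Of 138 further cell cycle genes in 11 lists, 102 were tested. In PPE week 1 against saline 6 were called higher and 1 lower, with a median log2 fold change of 0.47, where 3.98% of all accessions were called higher and 3.91% lower. DESeq2 called 12 higher and 1 lower, where it called 6.52% of all accessions higher. The 6 edgeR calls are a share near that of all accessions. The 6 were Chaf1b (2.26 ± 0.51), a histone chaperone of the replication fork, Pole (1.47 ± 0.34), the leading-strand polymerase, E2f4 (0.98 ± 0.25), an E2F factor, Rfc2 (0.97 ± 0.25), a clamp loader subunit, Ncapd2 (0.89 ± 0.23), a condensin subunit, and Incenp (0.71 ± 0.21), the partner of Aurora B. Ccnd2, a D cyclin of G1, fell by 0.71 ± 0.17. For PPE week 2 and saline edgeR called 0, and an unadjusted p under 0.05 was reached by 6 higher (background 8.84%) and 8 lower genes (background 7.72%). DESeq2 called 3 higher there, where it called 3.21% of all accessions higher, and limma-voom called 0. From PPE week 1 to PPE week 2, 7 fell and 0 rose, with a median of -0.65, where 2.82% of all accessions were called lower and 3.77% higher. DESeq2 called 15 lower and limma-voom 16, where they called 5.1% and 4.76% of all lower. The 7 were Knl1 (-1.76 ± 0.45) of the kinetochore, Foxm1 (-1.63 ± 0.33), the activator of G2 and mitosis genes, Asf1b (-1.57 ± 0.44), a histone chaperone, Kif4 (-1.48 ± 0.35), a chromosome motor, Hmmr (-1.41 ± 0.38), a spindle protein, Incenp (-0.97 ± 0.21) and the G1 kinase Cdk4 (-0.73 ± 0.19). Foxm1, Incenp, Pole and Chaf1b were called in all 12 fits that left out a library (Incenp in the comparison of the PPE groups), and the other calls were each lost in 2 to 8 of them. With the ribosomal RNA share as a covariate, none of the 7 calls in PPE week 1 was kept, and of the 7 between the PPE groups only Knl1 was.

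By list, the kinetochore and checkpoint genes had 1 of 10 called higher in PPE week 1 and 2 of 10 called lower from week 1 to week 2, with medians of 0.64 and -0.98. The motors and spindle proteins had 0 of 14 called higher and 2 of 14 called lower, with medians of 0.69 and -0.97. Chromatin assembly had 1 of 6 higher and 1 of 6 lower, polymerases and fork factors 2 of 17 higher and 0 lower, condensin and anaphase genes 1 of 11 higher and 0 lower, and the E2F and DREAM list 1 of 10 higher and 1 of 10 lower. With 3.98% of all accessions called higher and 2.82% lower, counts of 1 or 2 per list are too few to set a list apart. Lists with 0 called are given by the gene with the smallest p in PPE week 1: Gmnn, the inhibitor of Cdt1, at 2.07 ± 1.23, Dck, a deoxynucleoside kinase, at 1.79 ± 0.57, Fanci of crosslink repair at 1.44 ± 0.54 and the CDK inhibitor Cdkn2d at 1.18 ± 0.54. The other origin factors had the lowest median in PPE week 1, 0.08.

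**Figure D5:**
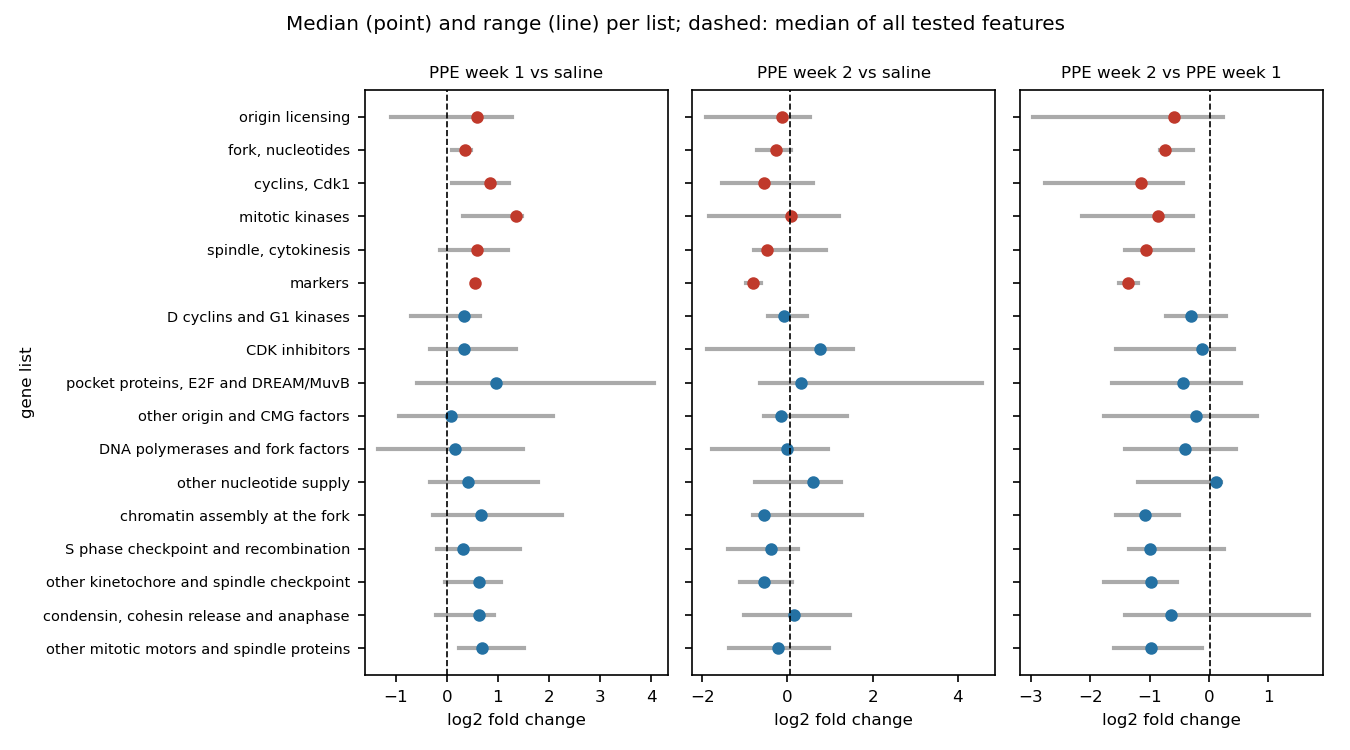
Median (point) and range (line) of the log2 fold change (horizontal axis) of the tested genes of each list (vertical axis), members in red and further cell cycle genes in blue, with a dashed line at the median of all tested accessions. The member lists had medians from 0.35 to 1.36 in PPE week 1 against saline and from -1.36 to -0.59 between the PPE groups.

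The authors' deposited table for PPE week 1 against the control group listed 29 members, of which 9 were called higher and 0 lower at an adjusted p under 0.05, where 9.23% of its 13810 accessions were called higher and 8.18% lower. In the authors' deposited table, the largest log2 fold changes among them were 1.29 for Bub1b (adjusted p = 2.72e-07), 1.22 for Plk1 (adjusted p = 0.00445) and 0.95 for Ccnb2 (adjusted p = 0.0165). The others in the authors' deposited table were Cenpe, Ccna2, Mcm2, Mki67, Top2a and Cenpf. All 9 are among the 10 members whose PPE week 1 and saline libraries did not overlap. For PPE week 2, the authors' deposited table listed 24 members and called 0, where 2.2% of its 9917 accessions were called higher and 1.63% lower.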

How the data were processed

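Aortic RNA of 12 mice was sequenced after library preparation with an unstranded TruSeq v2 kit, per the labels' protocols, each library from a separate animal. The authors deposited raw counts per RefSeq accession, and tables of their own comparisons with log2 fold changes and p-values. Bcl2fastq, DESeq2 and mm10 are named in the submitters' processing notes. For the aligner and annotation, nothing was given in the sources used here. Of 34755 accessions in the deposited counts, 14322 were at 0 throughout. Among low counts 66.0 to 75.6% were even, and halved counts were tried.

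Counts were analysed in edgeR 4.0.16 (R 4.3.3): filterByExpr left 12756 accessions, TMM scaling, robust quasi-likelihood fit with 1 mean per group over all libraries, Benjamini-Hochberg adjustment. The biological coefficient of variation was 0.512, which limits what 4 against 4 can show. DESeq2 1.42.0, limma-voom (limma 3.58.1), other scalings and filters, and fits without each library were alternatives. The code was tested on simulated counts. Members, lists and tests were chosen with earlier results of these data known. Values in every library are given for called members, the member with the smallest p in PPE week 1 and the most abundant one of each role, Mki67, Top2a, Ticrr and the Mcm subunits, and further genes are named where called, or by the smallest p of a list without calls. Genes with several accessions may be undercounted, which was not tested.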

Additional observations from a re-analysis of the deposited data

Results flagged for a closer look

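In 8 of 84 sets of 4 libraries (28 members in 3 groups), 1 library lay far from the others by Dixon's ratio, its gap to the nearest library over the group's range, and chance gives about 1 in 20 sets. In PPE week 2, replicate 2 was the highest for Mcm4 (ratio 0.890), Birc5 (0.870) and Cdc20 (0.918). In PPE week 1, replicate 4 was the highest for Birc5 (0.979) and the lowest for Nusap1 (0.870), and replicate 1 was the highest for Cenpe (0.892). In saline, replicate 3 was the lowest for Cdt1 (0.865) and replicate 2 the highest for Nusap1 (0.945).

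The effects of PPE at week 1 and at week 2, each against the same saline libraries, differed by edgeR's test of the difference in 6 members, on the log2 scale by -2.95 for Ticrr, -0.74 for Rrm1, -1.18 for Kif11, -1.41 for Cenpe, -1.21 for Cenpf and -1.20 for Mki67. Since both effects use the same saline libraries, this is the comparison of PPE week 2 with PPE week 1 given above and adds no evidence to it.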

How the results depend on the processing

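Of 1991 values of members under alternative settings, 1908 stayed on their side of the threshold, 48 lost a call, 35 gained a call and 0 called values reversed. Of the 1991, 53 had the other sign, all uncalled. Members called higher in PPE week 1 against saline (0) were 1 with DESeq2, 4 with library size only, 7 in a fit of only the 8 libraries compared, and 0 to 2 with a library left out. Of all accessions, 6.52%, 8.11%, 9.55% and 1.17% to 5.92% were called higher in those settings. Members called lower in PPE week 2 against saline (0) were 0 to 1 with a library left out. Members called lower in PPE week 2 against PPE week 1 (6) were 11 with DESeq2, 2 with library size only, 1 with only the 8 libraries compared (Kif11), 0 with the ribosomal RNA share as covariate, and 1 to 9 with a library left out. With a library left out, the share of all accessions called lower there ran from 0.837% to 4.6%. The cause was not tested. The replication median in PPE week 2 against saline was 0.39 with library size only, and with a library left out it ran from -0.32 to 0.02. Library size only moved the median of all accessions to 0.28, 0.54 and 0.23 in the 3 comparisons. Replicate numbers did not pair the samples: same-numbered libraries correlated at -0.0881 to 0.0353 over 12 pairs, and a library correlated best with its own number in 2 of 24 cases. With the replicate number as a block, 5 members were called lower in PPE week 2 against PPE week 1 (2.59% of all accessions were) and 0 were called elsewhere. The 5 were Ccna2, Cenpe, Cenpf, Mki67 and Rrm1, so that the calls of Ticrr and Kif11 were lost. Depth limits Mcm6, Birc5 and Nusap1, with 129 to 175 counts each in all.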
